A study of Mus musculus with 24 samples.

Results

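The lysosomal cathepsins, the subunits of the vacuolar proton pump (V-ATPase) and the lysosome-associated membrane proteins LAMP1 and LAMP2 were examined in epididymal white adipose tissue (eWAT) of mice. Genes were taken by symbol: the cathepsins Cts followed by 1 letter, every symbol that starts with Atp6v or Atp6ap, and Lamp1 and Lamp2. This gave 36 of the 16730 genes in the deposited table, of which 14067 carry a symbol. They comprise 14 cathepsins, with 10 cysteine, 2 aspartic and 2 serine proteases, 8 subunits of the membrane sector V0, 10 subunits of the cytosolic sector V1, 2 accessory subunits and 2 LAMP genes. Of the 36, 35 passed the filter on low counts, among 15020 genes that did. Ctse, the other aspartic cathepsin beside Ctsd, did not pass, with 0 to 25 counts per mouse.

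Bulk RNA of the fat pads of 24 adult male mice was sequenced from the 3′ end, with 6 mice in each of 4 groups. Control mice were Lama4 fl/fl, with exon 3 of the laminin alpha 4 gene flanked by loxP sites, and the others were their Lama4 AKO littermates, which carried in addition a Cre recombinase driven by the adiponectin promoter, so that deletion is limited to adipocytes while the whole tissue was sequenced. Each genotype was fed breeder chow or a high-fat diet (HFD, 45% fat) for 20 weeks. By the study's figure legends, feeding of HFD ended at a slightly older age than feeding of chow. Diet and age at collection therefore cannot be told apart here. The study asked how adipocyte Lama4 deletion and diet alter the tissue. Between libraries labelled Lama4 AKO and Lama4 fl/fl, Lama4 itself differed by 0.11 on chow (log2 fold change, adjusted p = 0.980) and by -0.69 on HFD (adjusted p = 0.347). A read near the 3′ end of a transcript does not have to cross exon 3, so these values do not check the labels, and genotype is used here as labelled.

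Libraries held 5579590 to 18764516 counts. The first principal component took 45.8% of the variance and followed the groups only in part. HFD-fed Lama4 AKO mice lay at 0.85 to 61.5 and chow-fed ones at -74.8 to 22.1. HFD-fed Lama4 fl/fl mice 1, 2 and 5 lay at 48.2 to 73.5 and mice 3, 4 and 6 at -76.1 to -9.88, among the chow-fed mice. Chow-fed Lama4 fl/fl mouse 3 (46.8) and chow-fed Lama4 AKO mouse 5 (22.1) were the highest of their groups, and chow-fed Lama4 fl/fl mouse 1 (-91.8) was the lowest of all. The study's methods set outliers aside by such an analysis. A set of 19 mice, without HFD-fed Lama4 fl/fl mice 3, 4 and 6, chow-fed Lama4 fl/fl mouse 3 and chow-fed Lama4 AKO mouse 5, was inferred in earlier work on these data as those kept, and is not in the labels. Leaving these 5 out removes the HFD-fed mice nearest to chow and the chow-fed mice nearest to HFD. Values from 19 mice are therefore given beside those from all 24, and not in their place. They are given for calls, sets, macrophage and mast cell marker sums and the genes whose levels are given. Because the choice of mice itself separates the diets, p-values and calls from 19 mice are descriptive and are not tests of diet.

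Lysosomes degrade proteins, lipids and whole cell remnants. The V-ATPase pumps protons into the organelle: its V1 sector hydrolyses ATP in the cytosol and its V0 sector carries the protons across the membrane. Cathepsins are proteases that mostly work in the acid this creates, and LAMP1 and LAMP2 line the membrane. In obese fat, macrophages around dying adipocytes are known for abundant lysosomes, and the transcription factors TFEB, TFE3 and MITF switch on many lysosomal genes through an E-box with the core CACGTG.

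That motif was looked up in the RefSeq promoters of GRCm38.p6, which span 250 bases before to 50 after the annotated start. An entry was found for 26 of the 36 genes, with 28 windows. The palindrome TCACGTGA stood in 17.9% of these windows, against 0.974% of all 32851 promoter windows, and the core CACGTG in 32.1% against 7.15%. Both are palindromes, so each match counts for both strands, and every match of the longer motif is also a match of the core. Such a match describes letters in a window and not a bound site. The 5 genes with the longer motif are shown because they span the membrane sector, the ATPase sector and the proteases, with 10 bases on each side and the motif in capitals, 5′ to 3′ on the gene's strand.
Atp6v0d1, chr8:105566051-105566078, minus strand: cctactgcggTCACGTGAgacgcggtgc
Atp6v0e, chr17:26676388-26676415, plus strand: agcgcgccgaTCACGTGAgcctctgttg
Atp6v1a, chr16:44139374-44139401, minus strand: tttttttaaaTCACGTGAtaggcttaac
Ctsa, chr2:164833750-164833777, plus strand: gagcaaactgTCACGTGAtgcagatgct
Ctsd, chr7:142387909-142387936, minus strand: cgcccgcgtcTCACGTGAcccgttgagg
The Ctsa window holds another copy of the longer motif. The core alone stood in the windows of Atp6v0b, Ctsf, Ctsl and Lamp1. Among the 5 genes shown, the difference between HFD and chow in Lama4 AKO mice ran from -0.01 for Atp6v0e to 0.98 for Ctsd on the log2 scale.

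The first question was what HFD did within each genotype. In Lama4 AKO mice most of the genes were higher on HFD, led by Ctsg, Atp6v0d2, Atp6ap2, Ctsk, Ctsb and Atp6v1b2, whereas in Lama4 fl/fl mice the differences lay on both sides of 0. Of the 35 tested, 28 were higher on HFD in Lama4 AKO mice, with a median log2 fold change of 0.52, beside 49.7% of all genes tested and a median of -0.003. In Lama4 fl/fl mice 21 were higher, with a median of 0.06, beside 48.6% of all genes. With the 19 mice, 25 were higher in Lama4 fl/fl mice, with a median of 0.33, beside 48.0% of all genes and a median of -0.03, and 27 in Lama4 AKO mice, with a median of 0.69, beside 49.7%. The cathepsin medians were then 0.60 and 1.02. By class, the medians in Lama4 AKO mice, in the fit of all 24, were 0.82 for 13 cathepsins, 0.11 for 8 V0 subunits, 0.50 for 10 V1 subunits, 0.88 for the accessory subunits and 0.42 for the LAMP genes.

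Calls needed a change of 1.5-fold or more, a nominal p no higher than 0.001 in edgeR's quasi-likelihood test, and a mean of 2 or more CPM (counts scaled to the size of the library) in the group with the higher level. Among Lama4 AKO mice this called 1 of the 35, Ctsg, where it called 4.12% of all genes. At an unadjusted p under 0.05 there were 24 (39.8% of all genes), of which 21 were higher (18.2%) and 3 lower (21.6%). In Lama4 fl/fl mice the rule called 0, where it called 0.173% of all genes. There, limma-voom and DESeq2 also called 0, and at an unadjusted p under 0.05 edgeR gave 1, Atp6v0d1, where 9.01% of all genes passed. With the adjusted p of at most 0.05 as the only criterion, a choice made after seeing the data, 12 passed in Lama4 AKO mice. Of these, 10 were higher on HFD, where 9.13% of all genes were, and 2 were lower, where 12.9% were. The 10 were Atp6ap2, Atp6v0a1, Atp6v1a, Atp6v1b2, Atp6v1c1, Atp6v1f, Atp6v1h, Ctsb, Ctsd and Ctsg, and the 2 were Atp6v0e2 and Atp6v1c2. Among the 19 mice, 24 passed that criterion in Lama4 AKO mice, where 40.3% of all genes did, and 9 in Lama4 fl/fl mice, where 29% did. The count of 12 depended on single mice, as did that over all genes (4.02% to 30.4%): it was 1 without HFD-fed Lama4 AKO mouse 4 or 5 or without chow-fed Lama4 AKO mouse 1 or 3 (4.02% to 7.87% of all genes), 2 to 4 without HFD-fed Lama4 AKO mouse 1 or 2 or chow-fed Lama4 AKO mouse 2 (11% to 12.6%), and 7 without HFD-fed Lama4 AKO mouse 3 or chow-fed Lama4 AKO mouse 4 (13.9% to 14.6%). It was 18 without chow-fed Lama4 fl/fl mouse 1 (26.3%) and 22 without chow-fed Lama4 AKO mouse 5 (30.4%).

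**Figure D1:**
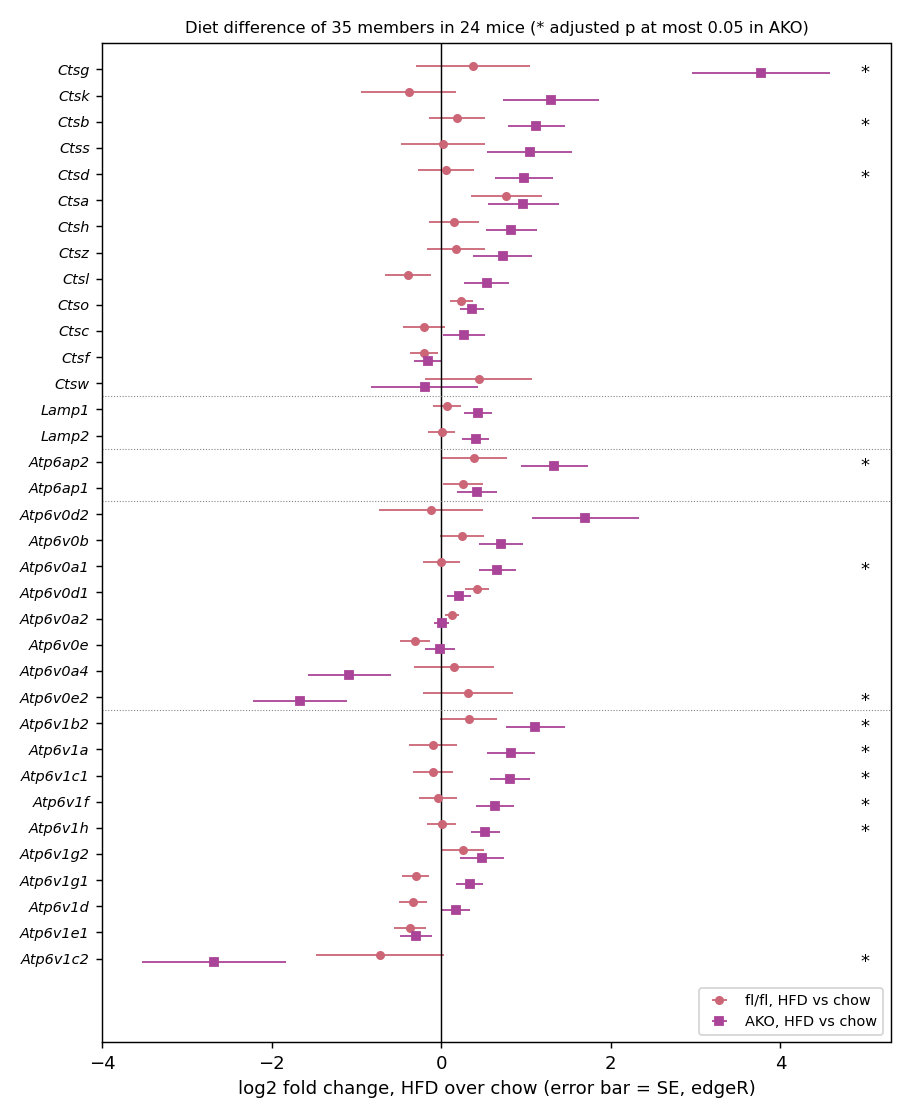
Log2 fold change of HFD over chow (x axis) for 35 genes (y axis, grouped from top to bottom as cathepsins, LAMP, accessory, V0 and V1). Circles are Lama4 fl/fl and squares Lama4 AKO mice, 6 mice per group. Bars are the standard error, computed from edgeR's fold change and F statistic. In Lama4 AKO mice 28 of 35 lie right of 0 and the 12 marked with an asterisk have an adjusted p of at most 0.05, whereas with these 24 mice none has in Lama4 fl/fl mice.

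With the 19 mice, 13 of 35 were called in Lama4 AKO mice, where 15.7% of all genes were called. Of these, 12 were higher (6.12% of all genes) and Atp6v1c2 was lower (9.57%). In Lama4 fl/fl mice 4 were called, Atp6ap2, Atp6v0b, Atp6v0d1 and Ctsa, all higher, where 11.8% of all genes were called. Averaged over both genotypes, 1 was called with 24 mice, again Ctsg (2.25% of all genes), and 12 with 19 mice (21.4%). With 24 mice 16 had an unadjusted p under 0.05 (35.5%), and 4 an adjusted p of at most 0.05 (12.4%): Atp6ap2, Atp6v0d1, Ctsg and Ctso.

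Among the cysteine cathepsins, Ctsb (ENSMUSG00000021939, chromosome 14, 63122462 to 63145923, GRCm38) encodes cathepsin B, a broadly expressed lysosomal protease. The lowest, median and highest of 6 chow-fed Lama4 fl/fl mice were 1165, 2930 and 4244 CPM, and of 6 on HFD 1447, 3496 and 5436 CPM. The Lama4 AKO values were 1269, 2059 and 3982 CPM on chow and 3184, 4958 and 6121 CPM on HFD. The Lama4 fl/fl groups overlapped widely, while in Lama4 AKO mice only chow-fed mouse 5 reached the HFD range. The log2 fold change was 1.12 ± 0.34 (SE) in Lama4 AKO mice (adjusted p = 0.0278) and 0.18 ± 0.33 in Lama4 fl/fl mice (adjusted p = 0.892). With the 19 mice it was 1.37 ± 0.27 in Lama4 AKO mice (adjusted p = 0.000967) and 0.79 ± 0.31 in Lama4 fl/fl mice (adjusted p = 0.0596).

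Ctsk (ENSMUSG00000028111, chromosome 3, 95499256 to 95509362) encodes the collagen-degrading cathepsin K of osteoclasts, and Ctss (ENSMUSG00000038642, chromosome 3, 95526786 to 95556403), its neighbour on the same strand, the cathepsin of antigen-presenting cells. For Ctsk, chow-fed Lama4 fl/fl mice gave 22.2, 343 and 417 CPM and HFD-fed ones 60.2, 244 and 392 CPM as lowest, median and highest. Lama4 AKO mice gave 37.9, 110.5 and 505 CPM on chow and 313, 408 and 532 CPM on HFD. Only chow-fed mouse 5 of the Lama4 AKO mice reached the HFD range, and in Lama4 fl/fl mice the median was lower on HFD. The log2 fold change was 1.29 ± 0.57 in Lama4 AKO mice (adjusted p = 0.0955) and -0.39 ± 0.56 in Lama4 fl/fl mice (adjusted p = 0.865). Over 19 mice these were 2.02 ± 0.50 in Lama4 AKO mice (adjusted p = 0.00415) and -0.05 ± 0.57 in Lama4 fl/fl mice (adjusted p = 0.959).

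For Ctss the values were 236, 1853 and 2516 CPM in chow-fed and 499, 1797 and 3527 CPM in HFD-fed Lama4 fl/fl mice. Lama4 AKO mice gave 425, 992 and 2572 CPM on chow and 1357, 2724 and 3243 CPM on HFD. Chow-fed Lama4 AKO mice 5 and 6 reached the HFD range, and chow-fed Lama4 fl/fl mouse 1 lay far below the rest of its group. The difference did not pass in either genotype, at 1.04 ± 0.50 in Lama4 AKO mice (adjusted p = 0.123) and 0.02 ± 0.50 in Lama4 fl/fl mice (adjusted p = 0.994). The 19 mice gave 1.18 ± 0.49 in Lama4 AKO mice (adjusted p = 0.0603) and 0.69 ± 0.57 in Lama4 fl/fl mice (adjusted p = 0.376).

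Ctsl encodes cathepsin L, another broad lysosomal protease. Its levels were 542, 1481 and 1842 CPM and 844, 1003 and 1285 CPM in Lama4 fl/fl mice on chow and HFD. The Lama4 AKO groups stood at 666, 917 and 1797 CPM on chow and 1083, 1555 and 2149 CPM on HFD. Its medians were lower on HFD in Lama4 fl/fl and higher in Lama4 AKO mice, at -0.39 ± 0.27 (adjusted p = 0.676) and 0.53 ± 0.27 (adjusted p = 0.14), neither past the threshold. With 19 mice these were -0.24 ± 0.33 in Lama4 fl/fl mice (adjusted p = 0.599) and 0.73 ± 0.27 in Lama4 AKO mice (adjusted p = 0.0412). Ctsz, which encodes the carboxypeptidase cathepsin Z, was at 147, 395 and 579 CPM and 222, 383 and 935 CPM in Lama4 fl/fl mice on chow and HFD. Lama4 AKO mice had 149, 256 and 613 CPM and 471, 506 and 642 CPM. Only chow-fed mouse 5 reached the HFD range in Lama4 AKO mice, and the log2 fold change there was 0.72 ± 0.35 (adjusted p = 0.123). For Ctsz the 19 mice gave 1.02 ± 0.32 in Lama4 AKO mice (adjusted p = 0.0171) and 0.60 ± 0.37 in Lama4 fl/fl mice (adjusted p = 0.232). The other cysteine cathepsins tested, Ctsc, Ctsf, Ctsh, Ctso and Ctsw, ran from -0.20 (Ctsw) to 0.82 (Ctsh) in Lama4 AKO mice, with none at an adjusted p of 0.05 or less.

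Ctsd (ENSMUSG00000007891, chromosome 7, 142375911 to 142388038) encodes the aspartic protease cathepsin D. Lama4 fl/fl mice had 1415, 3027 and 4581 CPM on chow and 1821, 3002 and 6905 CPM on HFD. Lama4 AKO mice had 1484, 2425 and 5108 CPM on chow and 3840, 4728 and 7300 CPM on HFD. Chow-fed mouse 5 was again the only one in the HFD range of its genotype, and the highest Lama4 fl/fl value came from HFD-fed mouse 2 alone. The log2 fold change was 0.98 ± 0.34 in Lama4 AKO mice (adjusted p = 0.0428) and 0.06 ± 0.34 in Lama4 fl/fl mice (adjusted p = 0.971). Among the 19 mice it was 1.28 ± 0.29 in Lama4 AKO mice (adjusted p = 0.00273) and 0.56 ± 0.34 in Lama4 fl/fl mice (adjusted p = 0.221).

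Ctsg (ENSMUSG00000040314, chromosome 14, 56099881 to 56102574) encodes cathepsin G, a serine protease of neutrophil and mast cell granules. It was counted rarely, with 0 to 5 counts in chow-fed and 10 to 42 in HFD-fed Lama4 AKO mice. In CPM these were 0, 0.0639 and 0.854 CPM as lowest, median and highest on chow and 0.895, 2.03 and 3.75 CPM on HFD, and the groups did not overlap. The gap between 0.854 and 0.895 CPM is within counting error. It rests on 5 counts in chow-fed mouse 5, whose library was the smallest (5579590 counts), and 10 counts in HFD-fed mouse 6. Lama4 fl/fl mice had 0.103, 0.771 and 1.28 CPM on chow and 0, 0.903 and 2.27 CPM on HFD, which overlapped. The log2 fold change was 3.77 ± 0.81 in Lama4 AKO mice (adjusted p = 0.0126) and 0.37 ± 0.67 in Lama4 fl/fl mice (adjusted p = 0.891). With 19 mice these were 4.62 ± 0.64 in Lama4 AKO mice (adjusted p = 8.66e-05) and 1.22 ± 0.57 in Lama4 fl/fl mice (adjusted p = 0.11). The HFD-fed Lama4 AKO mean of 2.25 ± 1.04 CPM (SD, n = 6) lay just above the minimum of 2 CPM, and without mouse 4 of that group Ctsg was not called, though its adjusted p was still at most 0.05.

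Ctsg was compared with markers of both cell types, a choice made after seeing the data. The 6 mast cell markers (Cpa3, Kit, Tpsb2, Cma1, Mcpt4 and Hdc) summed to 37.8 to 425 CPM in chow-fed and 598 to 1955 CPM in HFD-fed Lama4 AKO mice (two-sided exact permutation p = 0.00216, the smallest this design allows, adjusted p = 0.0866 over 40 tests). In Lama4 fl/fl mice the sums were 62.5 to 519 and 55.9 to 2301 CPM (exact permutation p = 0.102, adjusted p = 0.334). Among the 19 mice the Lama4 fl/fl sums did not overlap, at 62.5 to 274 CPM on chow and 1064 to 2301 CPM on HFD. The difference was 1521 against 723 CPM with 24 (exact permutation p = 0.0179, unadjusted and the smallest 5 against 3 mice allow). HFD-fed mice 3, 4 and 6, which were left out, had the lowest mean mast cell levels of their group (5.88, 3.10 and 2.99 on the log2 CPM scale). Chow-fed mouse 3, also left out, had the highest of its group (5.37). This separation therefore came with the choice of mice, and its p is not a test. With group means removed, Ctsg followed the mast cell level across 24 mice with a Pearson r of 0.877 (permutation p = 6e-05, adjusted over both relations p = 0.00012) and a Spearman rho of 0.868 (p = 9e-05, adjusted p = 0.00018). Without the 2 mice farthest from the median, r was 0.845. For the 5 neutrophil markers tested of 8, r was 0.339 (rho 0.277, permutation p = 0.119) and 0.0706 without 2 mice. Ctsg also followed the macrophage marker level described further on, with r = 0.788 and rho = 0.835. The part of these cells in the Ctsg difference was not tested.

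**Figure D2:**
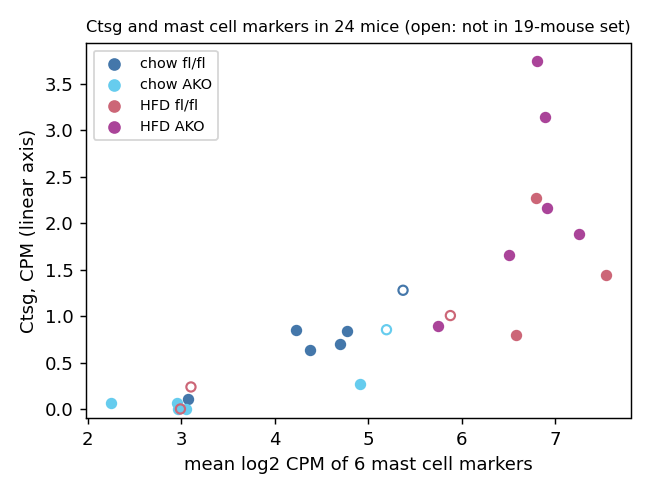
Ctsg in CPM (y axis) against the mean log2 CPM of 6 mast cell markers (x axis), 1 point per mouse, coloured by group, with open circles for the 5 mice outside the set of 19. Mice with more mast cell marker RNA had more Ctsg within and across groups (r = 0.877 with group means removed), and all chow-fed Lama4 AKO mice lie at or below 0.854 CPM.

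Among V0 subunits, the d subunit has a broad isoform, Atp6v0d1 (ENSMUSG00000013160, chromosome 8, 105524465 to 105566047), and one best known from osteoclasts and macrophages, Atp6v0d2 (ENSMUSG00000028238, chromosome 4, 19876841 to 19922605). Atp6v0d2 was at 22.8, 475 and 659.6 CPM in chow-fed and 84.4, 456 and 702 CPM in HFD-fed Lama4 fl/fl mice. It stood in Lama4 AKO mice at 38.5, 188 and 585 CPM on chow and 474, 756 and 907 CPM on HFD. Only chow-fed mouse 5 of the Lama4 AKO mice reached the HFD range. The log2 fold change of 1.70 ± 0.63 there just missed the threshold (adjusted p = 0.0548), and in Lama4 fl/fl mice it was -0.12 ± 0.62 (adjusted p = 0.963). With the 19 mice it was 2.26 ± 0.58 in Lama4 AKO mice (adjusted p = 0.0055) and 0.60 ± 0.65 in Lama4 fl/fl mice (adjusted p = 0.503).

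Atp6v0d1 behaved otherwise. It was at 70.4, 80.1 and 94.9 CPM and 83.3, 105 and 144 CPM in Lama4 fl/fl mice on chow and HFD. Lama4 AKO mice had 73.2, 93.9 and 103 CPM and 82.2, 105 and 128 CPM. Here the larger difference was in Lama4 fl/fl mice, 0.42 ± 0.14 (adjusted p = 0.448), against 0.21 ± 0.14 in Lama4 AKO mice, and the groups overlapped in both. The 19 mice gave 0.69 ± 0.16 in Lama4 fl/fl mice (adjusted p = 0.00383), where it was called, and 0.24 ± 0.13 in Lama4 AKO mice (adjusted p = 0.156). Within a mouse, the log2 ratio of Atp6v0d2 to Atp6v0d1 ran from -1.11 to 2.54 in chow-fed and from 2.42 to 2.99 in HFD-fed Lama4 AKO mice, from -1.74 to 2.85 in chow-fed and from -0.21 to 2.64 in HFD-fed Lama4 fl/fl mice. The lowest value in chow-fed Lama4 fl/fl mice was that of mouse 1 alone, and the other 5 ran from 2.39 to 2.85 (SD 0.18), beside an SD of 0.22 in the HFD-fed Lama4 AKO mice.

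The e subunit also has 2 isoforms. Atp6v0e2 (ENSMUSG00000039347, chromosome 6, 48537615 to 48541801) was lower on HFD in Lama4 AKO mice, from 5.81, 26.9 and 48 CPM to 5.63, 9.01 and 11 CPM as lowest, median and highest (-1.67 ± 0.55 on the log2 scale, adjusted p = 0.037). The groups overlapped through chow-fed mice 5 and 6. In Lama4 fl/fl mice it went from 7.34, 11.4 and 60.1 CPM on chow to 9.06, 16.8 and 51.7 CPM on HFD, with a difference of 0.31 ± 0.53 (adjusted p = 0.887). The 19 mice gave -1.87 ± 0.49 in Lama4 AKO mice (adjusted p = 0.00602) and -0.50 ± 0.58 in Lama4 fl/fl mice (adjusted p = 0.541). Atp6v0e had a difference of -0.01 ± 0.18 in Lama4 AKO mice (adjusted p = 0.965). Of the a subunits, which anchor the pump to a membrane, Atp6v0a1 was at 0.66 ± 0.22 in Lama4 AKO mice (adjusted p = 0.0375), Atp6v0a2 at 0.00 ± 0.09 (adjusted p = 0.989) and the sparse Atp6v0a4, with up to 4.23 CPM in a mouse, at -1.09 ± 0.49 (adjusted p = 0.102).

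In the V1 sector, Atp6v1a encodes the catalytic A subunit. It was at 213, 535 and 757 CPM and 312, 529.9 and 649 CPM in Lama4 fl/fl mice on chow and HFD. Lama4 AKO mice had 259.6, 401 and 786 CPM on chow and 546, 725 and 1079 CPM on HFD, where only chow-fed mouse 5 reached the HFD range. The log2 fold change was 0.82 ± 0.28 in Lama4 AKO mice (adjusted p = 0.0425) and -0.10 ± 0.28 in Lama4 fl/fl mice (adjusted p = 0.934). With 19 mice it was 1.07 ± 0.27 in Lama4 AKO mice (adjusted p = 0.00465) and 0.09 ± 0.32 in Lama4 fl/fl mice (adjusted p = 0.854). Its partner in the ATPase head, the B subunit gene Atp6v1b2, was at 1.11 ± 0.34 in Lama4 AKO mice (adjusted p = 0.0301), and with 19 mice at 1.40 ± 0.27 in Lama4 AKO mice (adjusted p = 0.000871) and 0.95 ± 0.31 in Lama4 fl/fl mice (adjusted p = 0.0278). The C subunit isoforms differed in direction, with Atp6v1c1 at 0.81 ± 0.24 (adjusted p = 0.0269) and Atp6v1c2, at 0 to 4.84 CPM in every mouse, at -2.68 ± 0.85 (adjusted p = 0.0323). Atp6v1f and Atp6v1h had adjusted p-values of 0.0462 and 0.0367, and Atp6v1d, Atp6v1e1, Atp6v1g1 and Atp6v1g2 did not pass, between -0.30 and 0.48.

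The accessory subunit gene Atp6ap2 (ENSMUSG00000031007, chromosome X, 12587801 to 12617049) encodes the prorenin receptor. It was at 147, 226 and 410.1 CPM in chow-fed and 332, 639 and 852 CPM in HFD-fed Lama4 AKO mice, with only chow-fed mouse 5 in the HFD range. Its log2 fold change was 1.33 ± 0.39 (adjusted p = 0.0265), and 0.39 ± 0.39 in Lama4 fl/fl mice (adjusted p = 0.78). The 19 mice gave 1.54 ± 0.28 in Lama4 AKO mice (adjusted p = 0.000588) and 1.28 ± 0.32 in Lama4 fl/fl mice (adjusted p = 0.00666), and it was called in both. Atp6ap1 was at 213, 277 and 444 CPM and 203, 324 and 624 CPM in Lama4 fl/fl mice on chow and HFD, and at 192, 298 and 412 CPM and 308, 374 and 525 CPM in Lama4 AKO mice. These groups overlapped in both genotypes, and Atp6ap1 did not pass (0.42 ± 0.24 in Lama4 AKO mice, adjusted p = 0.185). Atp6ap1 was with the 19 mice at 0.53 ± 0.18 in Lama4 AKO mice (adjusted p = 0.0247) and 0.81 ± 0.21 in Lama4 fl/fl mice (adjusted p = 0.00855).

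Lamp1 stood at 743, 1090 and 1194 CPM and 906, 1022 and 1606 CPM in Lama4 fl/fl mice on chow and HFD, and at 761, 960.2 and 1350 CPM and 1173, 1272 and 1566 CPM in Lama4 AKO mice. Lamp2 stood at 317, 434 and 619 CPM and 335, 447 and 601 CPM, and at 327, 408 and 467 CPM and 408, 556 and 590.0 CPM, in the same order. The spread of both was narrow, and all groups overlapped. In Lama4 AKO mice the log2 fold changes were 0.43 ± 0.16 for Lamp1 (adjusted p = 0.0584) and 0.41 ± 0.16 for Lamp2 (adjusted p = 0.0646), and in Lama4 fl/fl mice 0.07 ± 0.16 and 0.00 ± 0.16. Over 19 mice Lamp1 was at 0.54 ± 0.16 in Lama4 AKO mice (adjusted p = 0.0104) and 0.27 ± 0.19 in Lama4 fl/fl mice (adjusted p = 0.276). Lamp2 was then at 0.44 ± 0.14 in Lama4 AKO mice (adjusted p = 0.017) and 0.33 ± 0.16 in Lama4 fl/fl mice (adjusted p = 0.132).

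**Figure D3:**
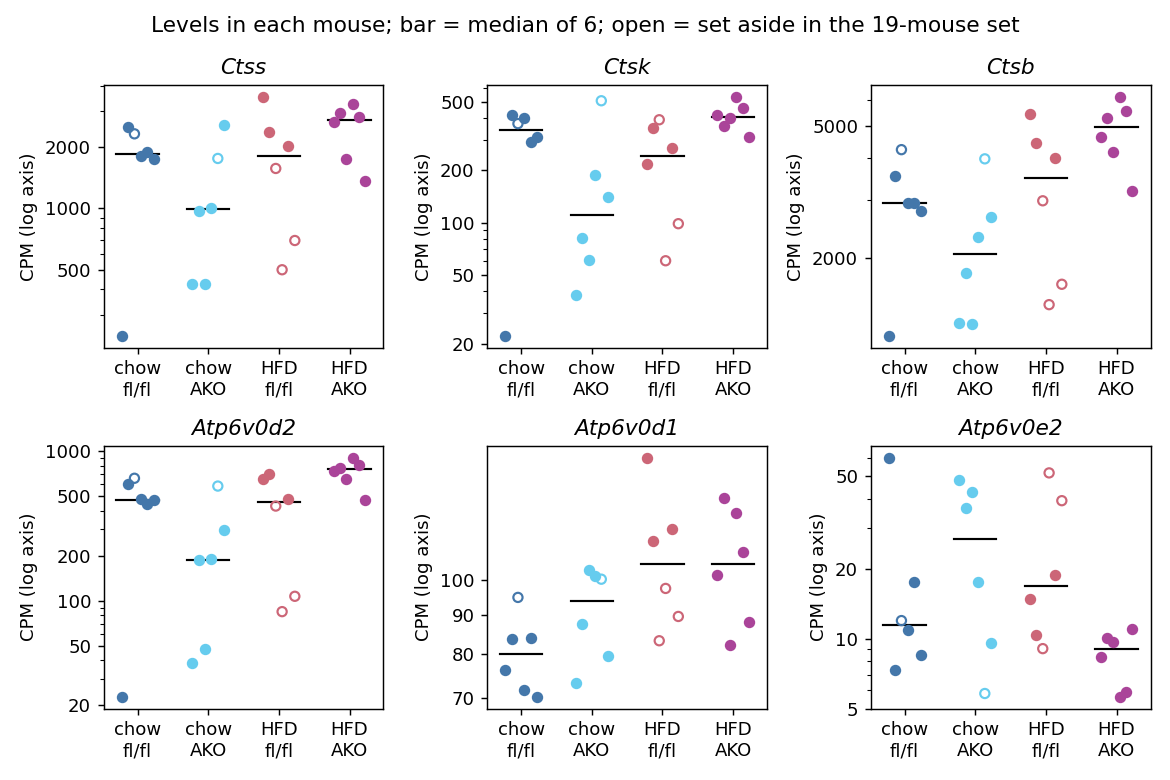
CPM on a log axis (y axis) in each of 24 mice by group (x axis) for 6 genes, with a bar at the median of 6 mice and open circles for the 5 mice outside the set of 19. Chow-fed Lama4 AKO mouse 5 lies among HFD-fed mice for Ctsk (505 CPM) and Atp6v0d2 (585 CPM), chow-fed Lama4 fl/fl mouse 1 lies lowest for both (22.2 and 22.8 CPM), and Atp6v0e2 runs the other way.

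The second question was what genotype did within each diet. On chow, 28 of the 35 genes were lower in Lama4 AKO than in Lama4 fl/fl mice, with a median of -0.23. Over all genes, 7420 of 15020 were lower, with a median of 0.004. With the 19 mice these were 28 and -0.19, beside 7496 of 14863 genes and -0.003. On HFD, 27 were higher, with a median of 0.25, beside 47% of all genes and a median of -0.03. With the 19 mice 19 were higher (54.3%), with a median of 0.05. That is near the 53.3% of all genes and their median of 0.03. None of these differences was called by edgeR, where 0.113% of all genes were called on chow and 0.173% on HFD, and limma-voom and DESeq2 also called 0. At an unadjusted p under 0.05 there were 2 on chow, Ctsg and Atp6v1g1, where 5.85% of all genes passed. On HFD there were 6, where 14.8% of all genes passed: Atp6v0a1, Atp6v1a, Atp6v1c1, Atp6v1h and Ctsl higher and Atp6v0e2 lower. The lowest p on HFD was that of Atp6v0a1, at 0.64 ± 0.22 (adjusted p = 0.291).

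Whether the diet difference itself depended on genotype was tested as an interaction. Again 0 of 35 were called by edgeR, limma-voom and DESeq2, where edgeR called 0.386% of all genes. At an unadjusted p under 0.05 there were 12, where 15.6% of all genes passed, with 11 of them larger in Lama4 AKO mice. The lowest p was that of Ctsg, 3.40 ± 1.05 (adjusted p = 0.238), followed by Atp6v1g1, 0.64 ± 0.22 (adjusted p = 0.25). With all 24 mice the difference was larger in Lama4 AKO mice for 29 of 35, with a median of 0.50. Over all genes these were 47.8% and -0.03. With the 19 mice it was larger for 25 of 35, with a median of 0.29, beside 53.7% and 0.04 over all genes. A diet difference that passed in Lama4 AKO and not in Lama4 fl/fl mice is therefore not shown to differ between them for any of these genes.

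Mice of 1 group differed widely. The median within-group SD on the log2 scale was 0.468 over the 35 genes, against 0.422 over all genes. It ran from 0.0983 for Atp6v0a2, lower than in all but 0.0399% of genes, to 1.39 for Atp6v0d2, higher than in 98.6%. The spread was compared with the amount of macrophage RNA, taken as the mean log2 CPM of 16 macrophage markers such as Adgre1, Cd68 and Csf1r, none of which is among the 36 genes. In bulk tissue, fewer cells of a type and less RNA per cell cannot be told apart.

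With group means removed, 17 of the 35 genes had a Pearson r above 0.8 with that level across 24 mice, where 8.70% of the 15004 genes tested outside the marker list had. Ctss had 0.965 (rho 0.883), Atp6v0d2 0.963 (rho 0.911), Atp6v1b2 0.954 (rho 0.872), Ctsb 0.946 (rho 0.867) and Ctsh 0.942 (rho 0.886), each r and rho with a permutation p of 1e-05, the smallest that 100000 permutations can give. Without the 2 mice farthest from the median, chow-fed Lama4 fl/fl mouse 1 and HFD-fed Lama4 fl/fl mouse 4, these were 0.937, 0.941, 0.932, 0.919 and 0.911. At the other end were Atp6v0e2 (-0.857, rho -0.77), Atp6v1c2 (-0.815, rho -0.773) and Ctsf (-0.672, rho -0.546), the 3 genes below -0.5, where 23.95% of those 15004 genes lay. Atp6v0e (0.0106), Atp6v0a2 (0.118) and Ctso (-0.12) stood near 0, and Atp6v0d1 had 0.379. Among the 6 HFD-fed Lama4 AKO mice alone, whose macrophage levels lay close together, r was 0.572 for Ctss, 0.738 for Atp6v0d2 and 0.944 for Ctsh. It was 0.303 for Ctsa and 0.312 for Ctsz, which had 0.902 and 0.862 over all 24 mice. For Ctsf it was 0.607, opposite in sign to its value over all 24. Over the family of 35 relations, adjusted p-values of at most 0.05 were reached by 24 genes with a positive r, of 0.52 or more, and 4 with a negative r, of -0.485 or less. Of the 15004 genes, 24.2% and 24.9% lay at or beyond these values. Because the markers share libraries and composition with the genes, these values describe RNA that varied together. The macrophage level was inversely related to the adipocyte level (r = -0.905) and followed the first principal component (r = 0.931).

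**Figure D4:**
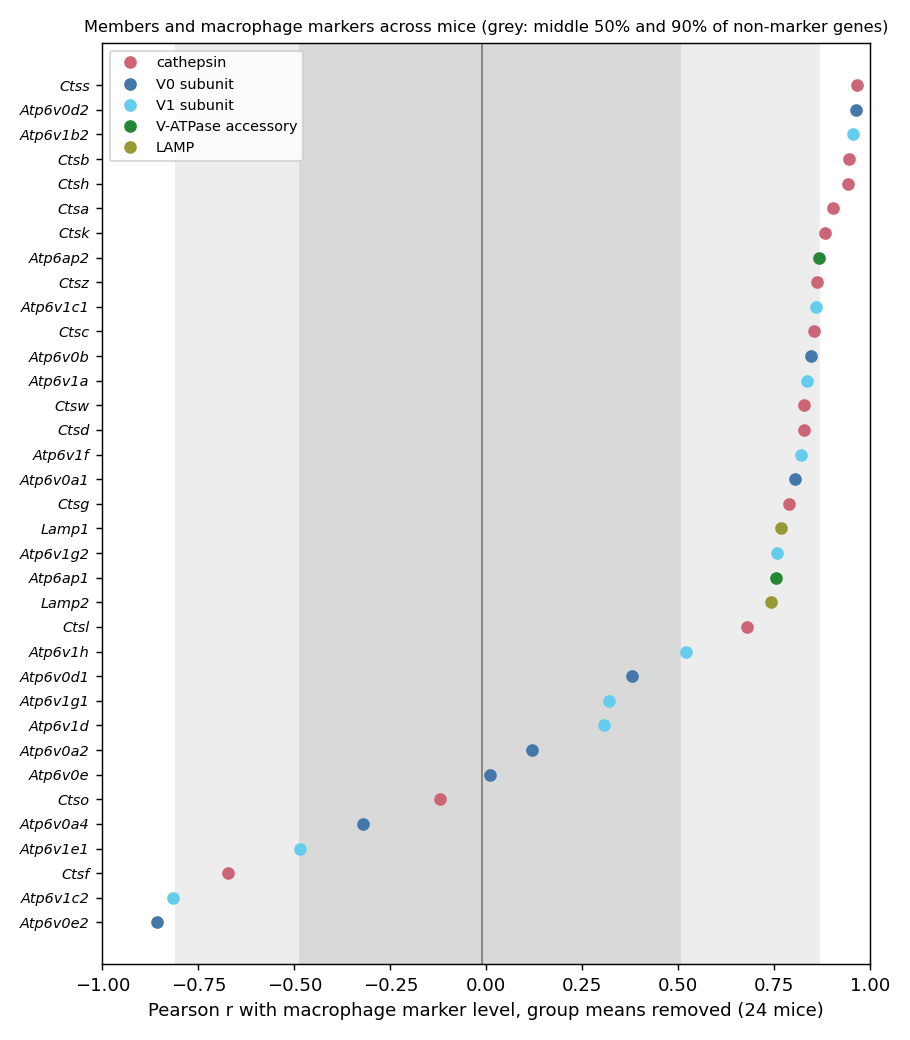
Pearson r (x axis) of 35 genes (y axis, sorted, coloured by class) with the macrophage marker level over 24 mice after removal of group means, with grey bands for the middle 50% and 90% of the 15004 genes outside the marker list. The genes run from -0.857 (Atp6v0e2) to 0.965 (Ctss), and 17 lie above 0.8.

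**Figure D5:**
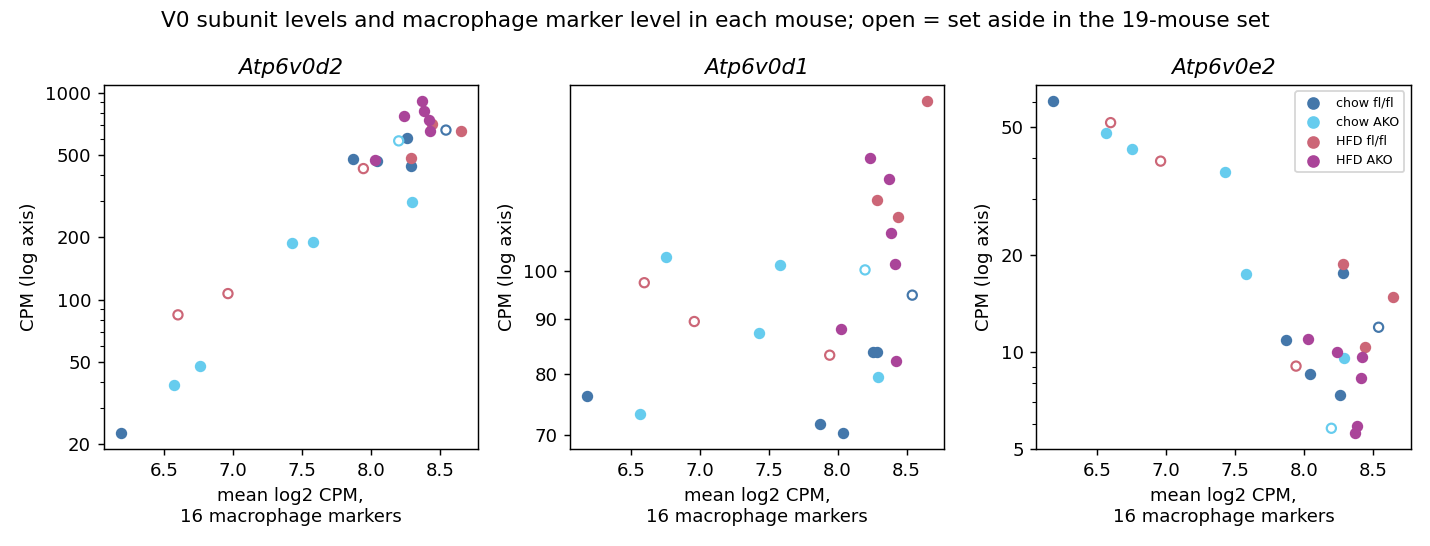
Levels of 3 V0 subunits in CPM on a log axis (y axis) against the mean log2 CPM of 16 macrophage markers (x axis), 1 point per mouse, coloured by group, with open circles for the 5 mice outside the set of 19. Atp6v0d2 climbs with the marker level (r = 0.963 with group means removed), Atp6v0e2 falls (r = -0.857) and Atp6v0d1 does neither plainly (r = 0.379).

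Markers of macrophages and other cells were summed in the same groups. The macrophage sum was 3213 to 11570 CPM in chow-fed and 9943 to 16445 CPM in HFD-fed Lama4 AKO mice (two-sided exact permutation p = 0.00866, adjusted p = 0.108 over 40 tests). Its largest part was Lyz2, with means of 2479 CPM on chow and 5602 CPM on HFD there. Of the 16 markers, 15 were higher on HFD in Lama4 AKO mice and 1 was lower, Cd163 (means of 37.6 and 18.6 CPM). Mrc1 hardly differed (257 and 259 CPM). In Lama4 fl/fl mice 8 were higher and 8 lower. In Lama4 fl/fl mice it was 2294 to 16079 CPM on chow and 3211 to 17148 CPM on HFD, a difference of 118 CPM (exact permutation p = 0.957). Over the 19 mice those sums were 2294 to 11852 and 11177 to 17148 CPM, a difference of 6099 CPM (exact permutation p = 0.0893, where 0.0179 is the smallest this set allows), and the Lama4 AKO difference was 7748 CPM (exact permutation p = 0.00649). The 10 markers of lipid-associated macrophages differed by 8311 CPM in Lama4 AKO mice (exact permutation p = 0.0108, adjusted p = 0.108), and the 13 adipocyte markers by -26163 CPM (exact permutation p = 0.0195, adjusted p = 0.111). In Lama4 AKO mice the endothelial sum differed by -256 CPM (exact permutation p = 0.0173), the stromal progenitor sum by 847 (p = 0.0108), the mesothelial sum by -42.6 (p = 0.0974), the neutrophil sum by -71.4 (p = 0.0758), the B cell sum by 19.5 (p = 0.320) and the T and NK cell sum by 1.48 (p = 0.946), none past an adjusted p of 0.05. The Lama4 fl/fl neutrophil mean was 202 CPM on chow and 67.2 on HFD, a difference of -135 (exact permutation p = 0.0152, adjusted p = 0.111), and -115 with the 19 mice (exact permutation p = 0.125). Most of the neutrophil sum was S100a8, with means of 185 and 55.7 CPM in Lama4 fl/fl and 128 and 61.8 CPM in Lama4 AKO mice on chow and HFD. No other neutrophil marker tested had a group mean above 7.46 CPM. Of the 5, 4 were lower on HFD in Lama4 fl/fl mice and 5 in Lama4 AKO mice. The Lama4 fl/fl adipocyte sum differed by -10997 CPM (exact permutation p = 0.455), and by -35752 with the 19 mice (exact permutation p = 0.0357, unadjusted). Of 13 markers of the epididymis, 2 were in the table and neither passed the filter. The part of these cells in the diet differences was not tested.

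Other lysosomal genes were counted from lists, with values from all 24 mice unless 19 are named. They stand beside 49.7% of all genes higher on HFD and 4.12% called in Lama4 AKO mice. For Lama4 fl/fl mice these shares were 48.6% and 0.173%. With 19 mice they were 49.7% and 15.7% in Lama4 AKO mice and 48.0% and 11.8% in Lama4 fl/fl mice. In Lama4 AKO mice, of 36 other hydrolases and their activators, 30 were higher on HFD with a median of 0.73. Ids and Tpp1 were called higher and Acp5 lower, named after their values were seen. With 19 mice 30 were higher in each genotype, with medians of 0.87 in Lama4 AKO and 0.45 in Lama4 fl/fl mice. Then 14 were called higher and 1 lower in Lama4 AKO mice, and 7 higher in Lama4 fl/fl mice. With all 24, 27 were higher in Lama4 fl/fl mice with a median of 0.17, and 0 were called. Averaged over genotypes, Dpp7, a lysosomal dipeptidase gene, rose by 1.10 ± 0.27 (adjusted p = 0.0235), and Idua, for alpha-L-iduronidase, was at 0.68 ± 0.19 (adjusted p = 0.0305). Of 27 membrane and sorting proteins, 22 were higher in Lama4 AKO mice with a median of 0.35 and 1 was called, Lamtor3, also named afterwards. With 19 mice 20 were higher in Lama4 AKO mice, with 6 called, and 18 in Lama4 fl/fl mice, with 1 called. With all 24, 12 were higher in Lama4 fl/fl mice with a median of -0.03, and 0 were called. Averaged over genotypes, Mcoln1, a lysosomal cation channel gene, was at 0.61 (adjusted p = 0.0539) and Gnptg at 0.38 (adjusted p = 0.0505). Of 10 MiT transcription factors and regulators, 9 were higher in Lama4 AKO mice with a median of 0.79. There 1 was called, Flcn, for folliculin, at 0.84 ± 0.16 (adjusted p = 0.0124). With 19 mice 4 were called higher and 1 lower in Lama4 AKO mice, and 1 higher and 1 lower in Lama4 fl/fl mice. With all 24, 6 were higher in Lama4 fl/fl mice with a median of 0.07, and 0 were called. Tfeb, averaged over genotypes, was at 0.58, Tfe3 at 0.55 ± 0.18 (adjusted p = 0.051), Mitf at 0.35 ± 0.24 (adjusted p = 0.296) and Fnip1 at 0.51 ± 0.16 (adjusted p = 0.0427). For Tfe3 the difference was 0.64 ± 0.26 in Lama4 fl/fl mice (adjusted p = 0.498) and 0.46 ± 0.26 in Lama4 AKO mice (adjusted p = 0.187). Of 10 genes linked to the V-ATPase under other symbols, not all of them pump subunits, 6 were higher in Lama4 AKO mice with a median of 0.12. Only Oxr1, which is not a pump subunit, was called there, and it fell by 0.60. With 19 mice 1 was called higher and 1 lower in each genotype. With all 24, 4 were higher in Lama4 fl/fl mice with a median of -0.09, and 0 were called. In Lama4 AKO mice Tcirg1, for the a3 subunit, was at 0.81 ± 0.42 (adjusted p = 0.153) and Dmxl1 at -0.54 ± 0.17 (adjusted p = 0.0341). Among the 3 cystatins tested, which inhibit cathepsins, Cst3 was at -0.44 (adjusted p = 0.0627) and Cst7 at 1.39 (adjusted p = 0.153).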

How the data were processed

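RNA of eWAT from 24 mice was sequenced as QuantSeq 3′ libraries. The authors mapped and counted reads with the Lexogen QuantSeq pipeline and deposited raw counts per gene. The other deposited table gives a normalized signal, the counts over 1 size factor per library, and served for symbols and GRCm38 positions only. The study's methods also name Rsubread for count matrices and limma-voom for testing. The aligner is not given in the sources used here. The submitters' processing notes name R 4.0.3 and DESeq2 1.30.

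Here edgeR 4.0.16 (R 4.3.3) was used. A gene needed 1 CPM or more in no fewer than 3 mice. Counts were scaled by TMM and fitted with 1 coefficient per group over all 24 mice in a quasi-likelihood model. This test gives no standard error, so the SE printed is the absolute log2 fold change over the square root of the F statistic. P-values were adjusted by the Benjamini-Hochberg method over the 15020 genes tested (14863 with 19 mice). QuantSeq gives about 1 read per transcript, so CPM is not divided by length. Depth per mouse was 5579590 to 18764516 counts, and a count of 0, which allows up to 3 counts, allows up to 0.538 CPM. That limit covers counting error only. Marker sums were compared by exact permutation, and correlations by 100000 permutations within groups. Alternatives were the 19 mice, RLE size factors, limma-voom (limma 3.58.1), DESeq2 1.42.0, no filter, an adjusted p rule, a replicate block and each mouse left out. The adjusted p alone and limma-voom on 19 mice were added after seeing the data. The scripts were tested on simulated data.

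All 36 genes may be named. Values per group are given for called genes and for 12 genes (Ctsb, Ctsd, Ctsk, Ctsl, Ctss, Ctsz, Atp6v0d1, Atp6v0d2, Atp6v1a, Atp6ap1, Lamp1 and Lamp2), and from each list the 2 genes with the lowest p averaged over genotypes, with Tfeb, Tfe3, Mitf and Tcirg1. Values for Atp6ap2 and Atp6v0e2 were added after they were seen. The genes and lists were chosen with earlier results of these data known. Same-numbered mice were checked for shared deviations: of 36 pairs, 15 had a correlation over 0.1 (median 0.001, range -0.534 to 0.714). Single pairs ranged widely, so the check does not settle whether the numbers pair mice. The main fit treats mice as unpaired, and the replicate block is an alternative. The 60 pairs of mice within groups differed by more than counting error (chi-square per degree of freedom of at least 5.72). Nothing in the labels names batches.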

Additional observations from a re-analysis of the deposited data

Results flagged for a closer look

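Among 52 sets of 6 mice, 10 held a mouse that stood apart from the other 5 by Dixon's 95% critical value, where chance gives about 1 in 20 for normal values. The sets are several genes read in the same mice, and many of these genes varied together. The flags are therefore not independent, and their number is not a test. Chow-fed Lama4 fl/fl mouse 1 was the low one for Ctsk (22.2 CPM, others 292 to 417), Ctss (236 CPM), Atp6v0d2 (22.8 CPM) and Lamp1 (743 CPM). Its mean macrophage marker level, 6.18 on the log2 CPM scale, was the lowest of its group. Chow-fed Lama4 AKO mouse 5 was the high one for Ctsd (5108 CPM), Ctsk (505 CPM, others 37.9 to 189) and Ctsg (0.854 CPM). HFD-fed Lama4 fl/fl mouse 2 was high for Ctsd (6905 CPM) and Ctsz (935 CPM), and HFD-fed Lama4 AKO mouse 6 was low for Lamp2 (408 CPM). The part of tissue composition in these values was not tested.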

How the results depend on the processing

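Counts of called genes depended on the mice included. The share of all genes called follows most counts. With 19 mice they were 4 (11.8%, Lama4 fl/fl), 13 (15.7%, Lama4 AKO) and 12 (21.4%, averaged), and with limma-voom on 19 mice 3 (12.4%), 11 (15.9%) and 12 (21.7%). DESeq2 on 24 mice called 3 (8.75%) in Lama4 AKO mice and limma-voom 0 (2.11%) averaged. The adjusted p with fold and CPM limits gave 10 (16.1%) in Lama4 AKO mice and 2 (6.03%) averaged, and alone 12 (22.1%) and 4 (12.4%). With the replicate number as a block, 0 (1.69%) were called averaged and 1 (3.04%) in Lama4 AKO mice. Leaving out each mouse in turn gave 0 to 5 called in Lama4 AKO mice (0 without HFD-fed Lama4 AKO mouse 4, where 2.16% of all genes were, 2 without chow-fed Lama4 fl/fl mouse 1, 5% of all, and 5 without chow-fed Lama4 AKO mouse 5, 7.80%), 0 to 1 averaged (0 for 11 of the 24 mice, in every group) and 0 to 1 for the interaction (1 without chow-fed Lama4 fl/fl mouse 1 or chow-fed Lama4 AKO mouse 5). Counts for genotype stayed at 0 under every alternative run. With all 24 mice, the share of all genes called was 2.25% averaged and 0.386% for the interaction. For genotype it was 0.113% on chow and 0.173% on HFD. For these comparisons the shares with single mice left out are not given. Some differences in Lama4 fl/fl mice, none past the threshold, changed sign, and the cause was not tested: Ctsd was at -0.0096 and Ctsg at -0.23 with limma-voom, Atp6v0d2 at 0.0194 with limma-voom, 0.60 with 19 mice and 1.24 with limma-voom on them, Atp6v1a at 0.0885 with 19 mice and 0.22 with limma-voom on them, and Ctsk at 0.49 with limma-voom on them. With single mice left out, the fold changes in Lama4 fl/fl mice ran from -0.0113 to 0.34 (Ctsb), -0.30 to 0.19 (Ctsd), -0.29 to 0.22 (Ctss), -0.20 to 0.32 (Ctsz), -0.37 to 0.0897 (Atp6v0d2), -0.26 to 0.0314 (Atp6v1a), -0.0691 to 0.13 (Lamp1), -0.10 to 0.12 (Lamp2) and -0.0794 to 0.63 (Ctsg), that of Ctsl averaged from -0.0123 to 0.17, and the Lama4 fl/fl marker differences from -1451 to 1528 CPM (macrophage) and -761 to 2079 CPM (lipid-associated macrophage). Low counts limit Ctsg, Ctse, Atp6v0a4 and Atp6v1c2.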
